A study of Mus musculus with 8 samples.

Results

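This account covers 4975 autosomal regions of open chromatin that were called in both libraries of Smc3-deleted Flt3-ITD mice and in none of the other 6 libraries. They were found by merging the peaks of all 8 peak lists wherever peaks shared at least 1 bp, and by keeping regions of chromosomes 1 to 19 that met that pattern of calls. Merging gave 114533 regions over all chromosomes, 109822 of them on autosomes, so the set is 4.53% of the autosomal regions. Both libraries of the combined genotype called 62678 autosomal regions, and the set is 7.94% of these. The members were chosen by the presence and absence of the authors' peak calls, so the set's size and its absence elsewhere are given as a description, with no test.

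The libraries are ATAC-seq, in which the Tn5 transposase cuts into accessible DNA, from 50000 c-Kit+ bone marrow cells per sample, 4 weeks after PIpC. Smc3-deleted Flt3-ITD mice carried Mx1-Cre, floxed Smc3 and the Flt3-ITD allele. Flt3-ITD mice carried the Flt3-ITD allele without the Smc3 deletion, and Smc3 del/+ mice carried 1 deleted Smc3 allele without Flt3-ITD. The titles of these 3 genotypes mark Mx1 as present. Control mice were Smc3 fl/+ and lacked Mx1-Cre. Each genotype had 2 libraries, and PIpC was given to all of them. The combined genotype is written Smc3 fl/del in one label and Smc3 heterozygous in another, so the state of its second Smc3 allele is not settled. For Flt3-ITD and Smc3 del/+, each free-text note describes the alleles of the other genotype. Titles and genotype labels were followed. Membership does not depend on this, because the rule treats those 4 libraries alike, but values given for Flt3-ITD or Smc3 del/+ by name do. Marrow came from individual mice, but whether a genotype's libraries are from separate animals is not stated, nor are age and sex. The spread between 2 libraries may therefore be technical.

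Smc3 is a core subunit of cohesin, the ring-shaped complex that holds sister chromatids together and extrudes chromatin loops. Cohesin works with CTCF to set the boundaries within which enhancers reach promoters. Flt3 is a receptor tyrosine kinase of early blood progenitors, and its internal tandem duplication signals without ligand and recurs in acute myeloid leukemia. Cohesin genes are also mutated in myeloid leukemia. Mx1-Cre is driven by an interferon-inducible promoter, is switched on by PIpC and acts in blood cells and in other tissues. c-Kit marks stem cells, progenitors and mast cells. A selected fraction therefore holds a mixture, and a region opened in all cells cannot be told from one carried by a larger share of some cell type. No genome or gene annotation of the mm9 build was used here. Regions are named by mm9 coordinates counted from 1. Their genes, sequences and motifs, and the marker loci of the c-Kit+ fraction, were not analysed here.

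The 2 Smc3-deleted Flt3-ITD lists were the longest of the 8. They held 78302 and 77849 autosomal peaks, against 59641 to 71835 in the other 6. Read depth is unknown for every library, and differences in list length cannot be told apart from differences in sequencing. These libraries also stood apart on the sex chromosomes, with 294 and 282 peaks on Y against 84 to 98 in the other 6. On X they had 2102 and 2185 peaks against 2228 to 2601. Both libraries of the genotype share this difference, so it cannot be told apart from genotype here. Its part in the autosomal set was not tested.

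The combined genotype had more regions to itself than any other genotype. The same pattern of calls, both libraries of a genotype and none of the other 6, was met by 363 autosomal regions for Flt3-ITD (0.331% of autosomal regions), 629 for Smc3 del/+ (0.573%) and 692 for control (0.63%). As a share of the regions that both libraries of the genotype called, these were 0.732% for Flt3-ITD, 1.35% for Smc3 del/+ and 1.32% for control. When every list was limited to the same number of peaks, the 61953 highest by score, 2305 regions were found for Smc3-deleted Flt3-ITD. The same limit gave 576 for Flt3-ITD, 1157 for Smc3 del/+ and 628 for control. Of 95576 autosomal regions these counts were 2.41% for Smc3-deleted Flt3-ITD, 0.603% for Flt3-ITD, 1.21% for Smc3 del/+ and 0.657% for control. With equal lists the count of the combined genotype was thus below the 4975 found with all peaks, and still the highest of the 4. Its lead over Smc3 del/+ was smaller, at 2305 against 1157 rather than 4975 against 629.

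Choosing regions with 1 library left its replicate as a measurement that the choice had not used. Of the 10750 autosomal regions called in Smc3-deleted Flt3-ITD replicate 1 and in no library of another genotype, replicate 2 also called 46.3% (exact binomial 95% interval 45.3 to 47.2). In the other direction, replicate 1 called 46.0% (45.1 to 46.9) of the 10816 chosen in replicate 2. In Flt3-ITD these shares were 13.9% of 2617 and 16.8% of 2165 regions. In Smc3 del/+ they were 22.4% of 2803 and 20.4% of 3083. In control they were 15.5% of 4458 and 26.8% of 2579. Both shares of the combined genotype lay above all 6 of the others. These intervals cover counting error only. Both shares of a genotype have the same regions as numerator, those called in that genotype alone. These are the 4975 members, and 363 regions for Flt3-ITD, 629 for Smc3 del/+ and 692 for control. The 2 shares are therefore not independent of each other or of those counts. Regions of the other 3 genotypes were also chosen against the 2 longest lists, and those of the combined genotype were not. With 1 genotype against 3, an exact permutation test cannot go below p = 0.25.

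With equal list lengths the recalled share averaged 45.3% in Smc3-deleted Flt3-ITD (46.4% from replicate 1 and 44.3% from replicate 2). It averaged 19.2% in Flt3-ITD (19.7% and 18.7%). The averages were 26.3% in Smc3 del/+ (26.3% and 26.3%) and 22.3% in control (23.8% and 20.7%). The 2 shares of a genotype again have the same numerator. Their difference therefore reflects only how many regions each library chose, and is not a spread between replicates. Recall rose with score within the lists of the combined genotype. For regions chosen in replicate 1 it was 29.3% in the lowest 20% of scores below 1 and 79.1% in the highest 20%. From replicate 2 the values were 28.6% and 78.2%. At a score of exactly 1 recall was lower, 50.4% of 133 regions and 45.2% of 155. Recall also rose with the number of libraries of other genotypes that shared a region. Among regions called in replicate 1, it was 64.7% where 1 other library had a call, 80.6% where 3 had and 98.9% where all 6 had.

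**Figure D1:**
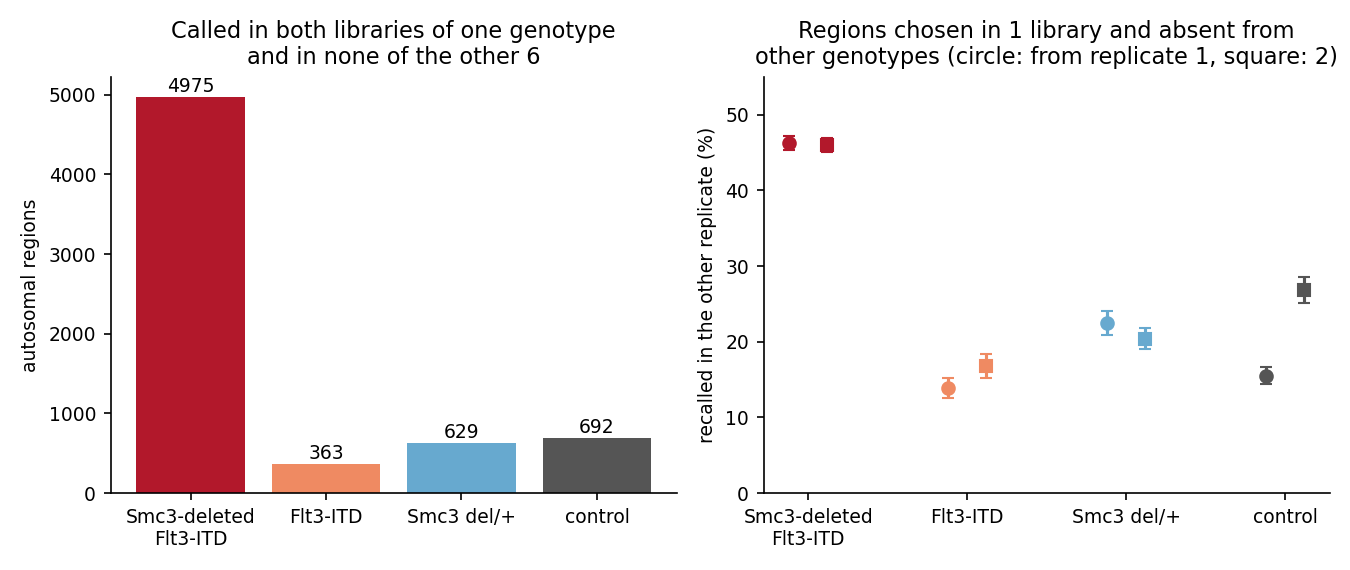
Left, bars give the number of autosomal regions called in both libraries of a genotype and in none of the other 6, which is 4975 for Smc3-deleted Flt3-ITD and 363 to 692 for the other genotypes. Right, points give the percentage of regions chosen in 1 library (circle, replicate 1; square, replicate 2) that the other replicate also called, with exact 95% binomial intervals; Smc3-deleted Flt3-ITD lies at 46.3% and 46.0%, the others between 13.9% and 26.8%.

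Regions just outside the rule were shared most often with the libraries titled Flt3-ITD, whose free-text notes instead describe a floxed Smc3 allele. A further 3514 autosomal regions were called by both libraries of Smc3-deleted Flt3-ITD and in exactly 1 of the other 6. That library was a Flt3-ITD library for 2015 of them (57.3%), a Smc3 del/+ library for 454 (12.9%) and a control library for 1045 (29.7%). By library the numbers were 1192 and 823 for Flt3-ITD, 220 and 234 for Smc3 del/+, and 728 and 317 for control. The lists differed in length, at 60885 and 58136 autosomal regions for Flt3-ITD, 56271 and 57667 for Smc3 del/+, and 67801 and 58820 for control, and the part of list length in these numbers was not tested. Where exactly 2 other libraries had a call (3541 regions), both were Flt3-ITD in 975, both Smc3 del/+ in 141 and both control in 396. The remaining 2029 had calls in libraries of different genotypes. Calls in a single library of the combined genotype and nowhere else numbered 5775 for replicate 1 (7.76% of the autosomal regions it called) and 5841 for replicate 2 (7.92%). Such calls numbered 2254 and 1802 in Flt3-ITD (3.70% and 3.10%), 2174 and 2454 in Smc3 del/+ (3.86% and 4.26%), and 3766 and 1887 in control (5.55% and 3.21%).

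**Figure D2:**
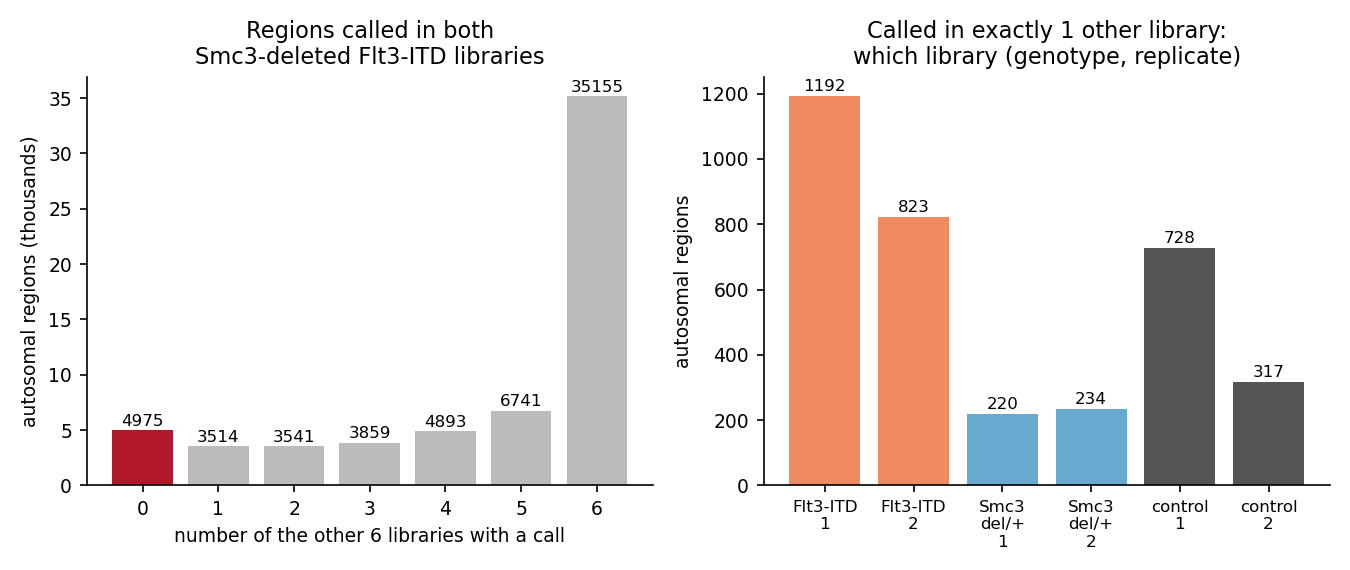
Left, bars give the number of autosomal regions that both Smc3-deleted Flt3-ITD libraries called by how many of the other 6 libraries also called them; 4975 were called in none (red) and 35155 in all 6. Right, for the 3514 regions called in exactly 1 other library, bars show which library it was; the Flt3-ITD libraries account for 1192 and 823, and the Smc3 del/+ libraries for 220 and 234.

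The set was drawn from the lower part of both peak lists. The authors' score runs from 0.99 to 1 and the sources used here do not give its meaning, so it served only to rank peaks within a list. Members had a median percentile of 24.7 in replicate 1 (quartiles 13.3 and 37.9) and of 25.6 in replicate 2 (13.6 and 38.2). Members made up 12.4% of the autosomal peaks in the lowest 20% of scores below 1 in replicate 1, and 12.2% in replicate 2. In the next 20% they made up 14.3% and 13.8%, the highest share in both lists. That share was 3.19% and 3.37% in the highest 20% of scores below 1. It was 0.245% and 0.256% among peaks of score 1, a class with 34.9% and 35.1% of the autosomal peaks. Only 242 members (4.86%) stood above percentile 50 in both lists.

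Regions of the other genotypes alone also ranked low. Their median percentiles were 18.3 and 15.8 in the Flt3-ITD lists, 20.6 and 22.3 in the Smc3 del/+ lists, and 21.4 and 16.9 in the control lists. In the lowest 20% of scores below 1 such regions held 1.66% and 1.89% of the Flt3-ITD peaks, 2.77% and 2.35% of the Smc3 del/+ peaks, and 2.50% and 3.41% of the control peaks. Among regions that both Smc3-deleted Flt3-ITD libraries called, rank climbed with sharing. In replicate 1 the median percentile was 31.4 where 1 other library had a call, 37.0 where 3 had, 48.5 where 5 had and 82.7, the tied rank of score 1, where all 6 had. Replicate ranks of the 4975 members were related only in part, with a Spearman rho of 0.460, against 0.883 over all 62678 regions called in both. This describes regions that share their 2 libraries, and the members span a narrower range of ranks.

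**Figure D3:**
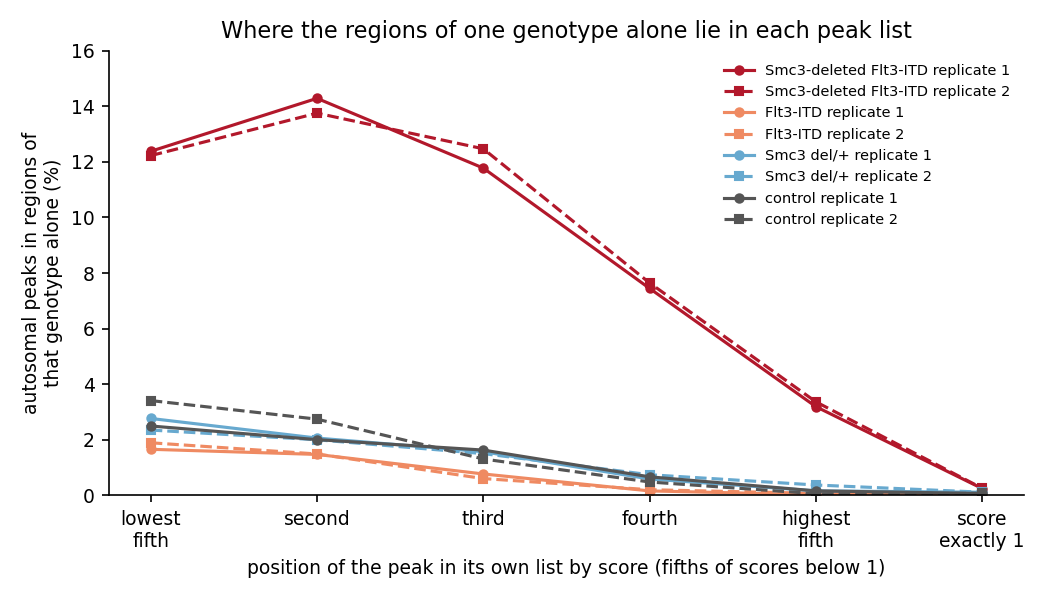
Each line is 1 library; the horizontal axis places its peaks by score, from the lowest to the highest 20% of scores below 1 and then score exactly 1, and the vertical axis gives the percentage of those autosomal peaks that lie in regions called in that genotype alone. Both Smc3-deleted Flt3-ITD lists run between 12.2% and 14.3% in the lowest 2 groups and reach 0.245% and 0.256% at score 1, and all 6 other lists stay at or below 3.41%.

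A limit at the upper 50% of scores exchanged most of the set. When only the upper 50% of each list was used, 3074 regions met the rule, and 242 of these (7.87%) overlapped a member. The other 2832 (92.1%) overlapped a lower-scoring peak of another genotype that the limit had left out. That peak was found in a Flt3-ITD library for 2653 of the 3074 regions (86.3%), in a Smc3 del/+ library for 1508 (49.1%) and in a control library for 2039 (66.3%). With equal list lengths, 1846 of 2305 regions (80.1%) overlapped a member, and these were 37.1% of the members. In that setting 455 regions (19.7%) overlapped a peak of another genotype that the limit had left out. Such a peak was found in a Flt3-ITD library for 250, in a Smc3 del/+ library for 17 and in a control library for 235. Calls of the combined genotype in its upper 50%, set against all peaks of the other 6, gave 242 regions. This setting in essence selects the members above percentile 50 in both lists, so the equal number is not a separate result.

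Most members were a single peak in each library, and in most at least 50% of the narrower call was shared. Merging itself requires 2 such peaks to share at least 1 bp. Of the 4975, 4819 (96.9%) held 1 peak from each library. Regions spanned 163 to 2338 bp with a median of 733 bp, and covered 3.76 Mb in all. The widest peak of a library in a member had a median width of 419 bp in replicate 1 and 422 bp in replicate 2, against 405 and 406 bp over all autosomal peaks of those lists. By these widest peaks, both libraries were under 500 bp in 2202 members (44.3%), and both were at least 800 bp in 300 (6.03%). In 1201 (24.1%) 1 library gave a peak under 500 bp and the other a peak of at least 800 bp. The replicates shared a median of 344 bp. As a percentage of the bases covered by the narrower call, the median was 98.8%. At least 50% of the narrower call was shared in 4362 members (87.7%). This share was 88.4% for Flt3-ITD alone, 91.3% for Smc3 del/+ alone and 85.7% for control alone. The 300 wide members had median percentiles of 23.6 and 23.2, and the 2202 narrow ones of 27.4 and 28.4.

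Most members had no peak of the other genotypes within 1 kb, but most had one within 5 kb. The rule admits only regions that overlap no such peak, so part of the separation is fixed by it. No expected share for regions so chosen was computed. No peak of the other 6 libraries lay within 1 kb of 4077 members (81.9%; exact 95% interval 80.9 to 83.01). For 48.1% there was none within 5 kb, for 31.4% none within 10 kb and for 5.79% none within 50 kb. The median gap to the nearest such peak was 4.65 kb (quartiles 1.55 and 13.3 kb), and 4 members abutted one. Regions of other genotypes alone had no peak of other genotypes within 1 kb in 46.3% of cases for Flt3-ITD, 60.7% for Smc3 del/+ and 65.6% for control. Their lists are set against the 2 longest lists, whereas the members are not, so the shares are not like for like. Taken library by library, the median gap was 7.37 and 7.97 kb to Flt3-ITD peaks, 9.13 and 9.04 kb to Smc3 del/+ peaks, and 7.10 and 8.58 kb to control peaks. In 173 members (3.48%) all 6 other libraries had a peak within 1 kb that did not overlap the region, and in 307 exactly 1 had.

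The few members with a score of 1 in both lists lay closer to peaks of other genotypes than the rest. Both libraries gave a score of 1 in 35 members, and 14 of these (40%; 23.9 to 57.9) had no other peak within 1 kb, with a median gap of 0.402 kb. Among members with a mean percentile of up to 20 the share was 81.0%, from 20 to 40 it was 83.8%, and from 40 to 60 it was 81.5%. In the 81 members from 60 to 83, short of score 1 in both, it was 76.5% (65.8 to 85.2), with a median gap of 4.56 kb. The closer position was thus seen at score 1 in both lists and not in the ranks just below. The score 1 class was chosen after the data were seen and holds 35 members. Neighbouring regions are not independent, and the intervals cover counting error only.

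Members also lay farther from shared open chromatin than regions that other libraries called. The median distance to the nearest region called in all 8 libraries was 14.6 kb (quartiles 4.63 and 43.2 kb). It was 12.1 kb for regions called in 1 other library, 11.4 kb for 2, 10.2 kb for 3, 8.56 kb for 4 and 7.27 kb for 5. The quartiles of these classes overlap widely. The 14.6 kb of the members became 29.9 kb when regions with another peak within 5 kb were left out. It was 25.01 kb with the upper 50% of each list, for a mostly different set. Of the regions in that set, 7.87% overlapped a member. Of members, 26.5% lay within 5 kb of a region called in all 8, against 41.6% of the regions called in 5 other libraries. For regions of 1 genotype alone the median was 2.98 kb in Flt3-ITD, 11.4 kb in Smc3 del/+ and 10.2 kb in control.

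**Figure D4:**
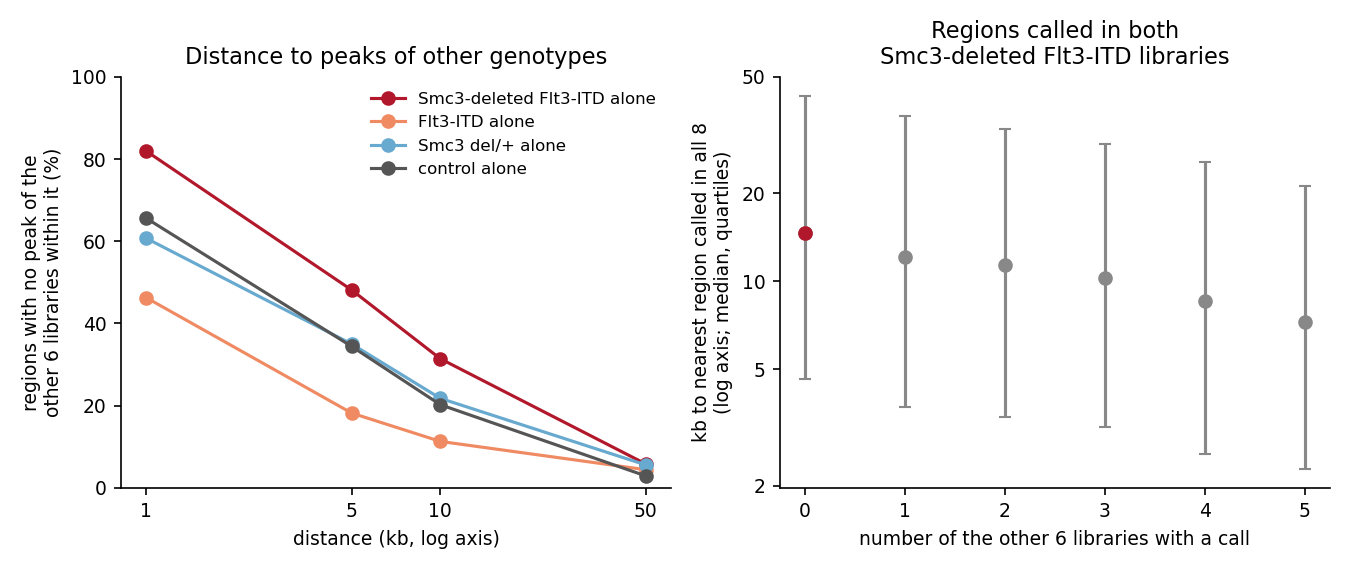
Left, for regions called in 1 genotype alone, the percentage with no peak of the other 6 libraries within 1, 5, 10 and 50 kb (log axis); Smc3-deleted Flt3-ITD stands at 81.9% for 1 kb and 5.79% for 50 kb. Right, median and quartiles of the distance in kb (log axis) to the nearest region called in all 8 libraries, by how many other libraries called a region of both Smc3-deleted Flt3-ITD libraries; the median is 14.6 kb for none (red) and 7.27 kb for 5.

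Every autosome carried members. They made up between 6.21% (258 of 4157, chromosome 11) and 10.2% (463 of 4538, chromosome 1) of the regions that both Smc3-deleted Flt3-ITD libraries called. The exact 95% intervals of the share were 5.49 to 6.98% on chromosome 11 and 9.34 to 11.1% on chromosome 1, and do not overlap. Chromosomes 7 (6.62%) and 8 (6.71%) were also low, and chromosome 12 (8.85%) was among the high ones. With equal list lengths the shares were 5.18% on chromosome 1 and 3.45% on chromosome 11, in the same order. Chromosomes were compared after their values were seen, and neighbouring regions are not independent, so no test is given.

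**Figure D5:**
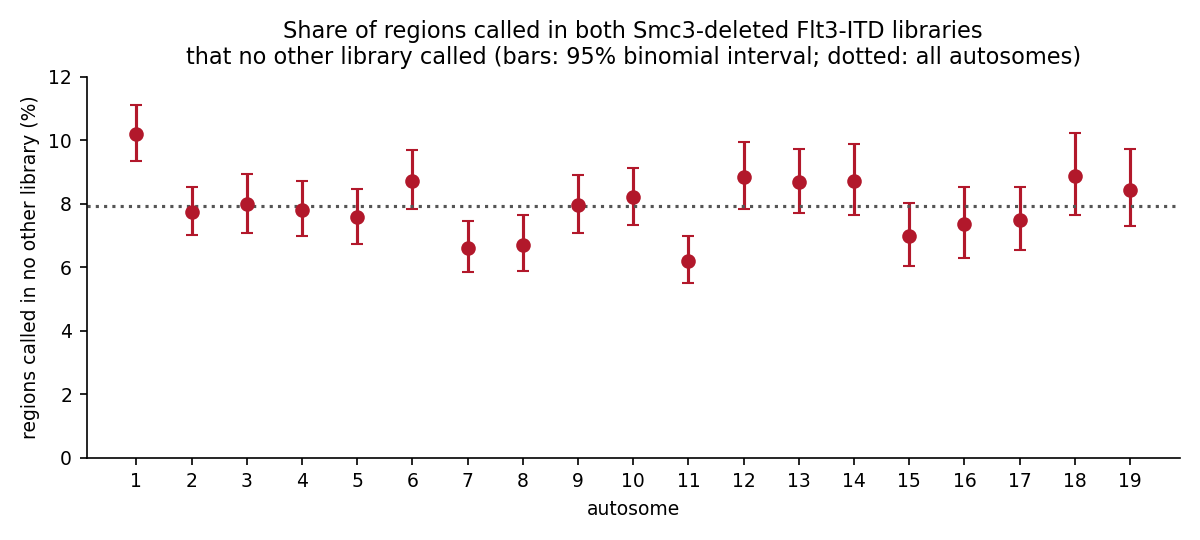
Points give, for each autosome, the percentage of regions that both Smc3-deleted Flt3-ITD libraries called that no other library called, with exact 95% binomial intervals; the dotted line is the 7.94% over all autosomes. Chromosome 1 is highest at 10.2% and chromosome 11 lowest at 6.21%.

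A member was followed by another member more often than other regions were. The regions compared were those that both libraries of the combined genotype called. The next region to the right was a member for 13.7% of members (682 of 4974, interval 12.8 to 14.7) and for 7.44% of other regions (4292 of 57685). Those other regions include the 35155 called in all 8 libraries, which rank higher, and regions of similar rank were not compared separately. Neighbouring regions are not independent, and the interval covers counting error only. Leaving out a Smc3-deleted Flt3-ITD library moved both shares, to 21.6% of members and 13.96% of other regions without replicate 1, and to 21.3% and 13.8% without replicate 2. With equal lists they were 10.02% and 4.33%. With the upper 50% of the Smc3-deleted Flt3-ITD lists only they were 4.55% and 0.688%, and none of the 35 members at score 1 in both lists was followed by another. In all, 1245 members (25%) stood in 563 uninterrupted runs of at least 2. There were 16 runs of at least 4, and the longest, 4 in number, held 5. The tightest of these put 5 members into 4.65 kb at chr17:80967804-80972450. The others spanned 53.9 kb at chr10:41837838-41891727, 70.2 kb at chr12:46037639-46107875 and 246.2 kb at chr2:50709242-50955462. Neighbouring members had a median distance of 191.6 kb, and 365 of the neighbouring pairs (7.36%) were within 10 kb.

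Of the 2189 windows of 1 Mb with a region called in both libraries, 1661 (75.9%) held a member, with a median of 2 and at most 14. The named windows with the most were chr5:53000001-54000000 and chr4:141000001-142000000, with 13 each, and chr2:52000001-53000000, with 12. Members were 25% of the 52 regions called in both libraries in the window on chromosome 5, 18.3% of 71 in that on chromosome 4 and 22.2% of 54 in that on chromosome 2. Regions called in all 8 libraries numbered 17, 36 and 14 there. In the window on chromosome 5 the 13 members ran from 53009230 to 53964421. Their percentiles in replicate 1 went from 2.67 at chr5:53894659-53895182 to 82.7 at chr5:53579739-53580547. That region had a peak of score 1 in both lists, 809 bp wide in replicate 1 and 281 bp wide in replicate 2. Its nearest peaks were 5.37 and 5.39 kb away in Flt3-ITD, 5.44 and 68.9 kb in Smc3 del/+, and 5.42 and 77.8 kb in control.

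The highest-ranked members, all at score 1 in both lists and ordered by peak width, differed in how isolated they were. The first, chr9:80189455-80190612, had peaks of 866 and 989 bp that shared 697 bp. Its nearest peaks lay 1.16 and 1.65 kb away in Flt3-ITD, 8.83 and 1.42 kb in Smc3 del/+, and 1.71 and 1.73 kb in control. At the second, chr10:13653021-13654092, peaks of 431 and 1072 bp stood 12.6 and 12.5 kb from Flt3-ITD peaks. There the Smc3 del/+ peaks were 3.05 and 3.70 kb away and the control peaks 3.37 and 3.26 kb. The third, chr8:37215062-37216211, had peaks of 226 and 1150 bp, and in all 6 other libraries the nearest peak was 5.44 to 6.05 kb away. The most isolated of the 10 was chr16:49049221-49050021, with peaks of 264 and 801 bp and the nearest other peak 31.8 kb away. Its nearest peaks were 54.8 kb away in both Flt3-ITD libraries, 32.2 and 31.8 kb in Smc3 del/+, and 54.97 kb in both control libraries.

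The smallest gaps of the remaining 6 ran from 0.216 to 5.37 kb. At chr4:89154431-89155239, with peaks of 809 and 467 bp, the smallest gap was 0.862 kb. The gap was 0.216 kb at chr8:119160039-119160669 and 0.402 kb at chr6:143169001-143169476. Each of the 6 other libraries had a peak less than 1 kb from both of these. At chr1:168935032-168935557 the smallest gap was 3.01 kb, and at chr4:59055789-59056238 it was 1.53 kb. The region at chr5:53579739-53580547, described above, completes them.

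The members farthest from any peak of the other genotypes were 427.9 to 1641 kb away from one. At chr11:37937209-37937652 the nearest peak of the other 6 was 1641 kb away, in Flt3-ITD replicate 2, and the nearest region called in all 8 was 2281 kb away. Its peaks, 444 and 224 bp wide, ranked at percentiles 32.3 and 56.4. At chr6:9676146-9677450 the calls were 1230 and 1153 bp wide, and the nearest other peak lay 768.3 kb away. A pair of members, chr1:32305545-32305935 and chr1:32306800-32307826, stood next to each other, with the nearest peak of another genotype 496.8 kb from the first and 494.9 kb from the second. The fifth, chr1:11647556-11648097, was 427.9 kb from the nearest, in Smc3 del/+ replicate 1.

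The members with the most bases shared by both replicates did not rank high, with at most 1 of each pair of percentiles above 50. At chr1:196247936-196250072 calls of 2137 and 1386 bp shared 1386 bp, at percentiles 35.7 and 31.5. Its nearest peaks were 4.56 and 4.59 kb away in Flt3-ITD, 196.0 and 195.2 kb in Smc3 del/+, and 78.6 and 195.1 kb in control. At chr10:45578428-45579875 the replicates shared 1353 bp at percentiles 26.3 and 16.3, and the nearest other peak lay 35.6 kb away. At chr12:109438984-109440425 they shared 1341 bp, with peaks of all 6 other libraries 4.30 to 4.75 kb away. At chr13:113821919-113823350 they shared 1291 bp and ranked at 33.2 and 4.01. At chr17:78772184-78774050 they shared 1271 bp, and the smallest gap was 5.99 kb.

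For contrast, the 3 highest-ranked regions that missed the rule by 1 library were all called in Flt3-ITD replicate 1. At chr17:29572050-29573195 the Smc3-deleted Flt3-ITD peaks were 1125 and 1108 bp wide, and the libraries without a call had peaks 0.685 to 0.894 kb away. At chr3:21366579-21367919, with peaks of 1341 and 742 bp, the nearest peaks of the other 5 were 164.7 to 266.3 kb away. At chr19:21569976-21571368 the peaks were 1162 and 897 bp wide, and the nearest peaks of the other 5 were 13.2 to 15.6 kb away.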

How the data were processed

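The deposited files are 1 peak list per library (6 columns, no header), with the authors' score per peak and no read counts. Per the submitters' processing notes, Bowtie and mm9 were used. The sources used here do not give the peak caller, its settings, duplicate handling or the transposase offset. The authors deposited scores from 0.99 to 1, and 27.2% to 34.9% of a library's peaks had exactly 1. Peak starts and ends are as deposited, with starts counted from 0, and are printed here counted from 1.

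All 557040 peaks, 1550 of them repeated intervals (0.278%), were merged where they shared at least 1 bp. Abutting peaks stayed apart. Score percentiles were taken within a list, with tied ranks averaged, and a region took the highest percentile and the largest peak width it had in each library. Distances are bases between a region and the nearest peak. Intervals are 95% Clopper-Pearson intervals, for counting error alone. Merging and the rule were tested on simulated data with known answers. Planned motif, gene and promoter steps were not run, for want of an mm9 reference. The alternatives were other merging, exclusion distances, score limits, equal list lengths and leaving out each library. Named regions were, by rule, the 10 highest by mean score percentile (ties by width), the 5 farthest from other peaks, the 5 with most shared bases, the 3 windows of 1 Mb with most members and 3 near misses; chromosome 18 was counted but not named. Members, lists and rules were chosen with earlier results of these data known. Tables were made with pandas 2.3.3 and numpy 2.4.6 in Python 3.11.15, intervals with scipy 1.17.1 and figures with matplotlib 3.10.9.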

Additional observations from a re-analysis of the deposited data

Results flagged for a closer look

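The rule covers autosomes only, and the same pattern of calls was also met outside them. Of 472 merged regions on chromosome Y the combined genotype (Smc3-deleted Flt3-ITD) had 134 to itself (28.4%), against 3 for Flt3-ITD, 1 for Smc3 del/+ and 1 for control. Of 4239 on chromosome X it had 104 (2.45%), against 23 for Flt3-ITD (0.543%), 46 for Smc3 del/+ (1.09%) and 31 for control (0.731%). Sex is not stated for any mouse. The difference on Y goes together with genotype and cannot be told apart from it here. Its part in the autosomal set was not tested.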

How the results depend on the processing

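The count of 4975 regions was 2394 with no peak of the other 6 allowed within 5 kb, 2305 with equal list lengths, 3074 with the upper 50% of each list, 242 with that limit on the Smc3-deleted Flt3-ITD lists only, and 35 with a score of exactly 1 in both, a limit chosen after seeing the data. It was 4077 with none within 1 kb, 4362 with at least 50% of the narrower call shared, 5160 with peaks up to 100 bp apart merged and 5846 without merging. Leaving out a library gave 5223 to 11206, with 11206 without Smc3-deleted Flt3-ITD replicate 1 and 11160 without replicate 2, where 1 library then decides the call.

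Median width (733 bp) was 683 bp with 50% of the narrower call shared, 765 bp with 100 bp merging, 629 bp with equal lists, 482.5 bp with the upper 50%, 466.5 bp with it on those 2 lists only, 391 bp at score 1, and 412 to 732 bp without a library. The mean of the replicates' median percentiles (25.1) was 40.4, 61.9, 59.3 and 82.6 for equal lists, the upper 50%, those 2 lists only and score 1, and 17.9 to 27.1 without a library. The share with no other peak within 1 kb (81.9%) was 85.8% with 100 bp merging and 88.4% with the upper 50%. It was 75.6% with that limit on those 2 lists only, 40% at score 1, and 75.1% to 82.4% without a library. The 88.4% counts only peaks that the limit kept. Of its 3074 regions, 92.1% overlapped a lower-scoring peak of another genotype that the limit had left out.

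Recall in the replicate left out of the choice, averaged over both directions, was 46.1% for Smc3-deleted Flt3-ITD. It was 45.3% with equal lists, 54.5% with the upper 50% and 49.1% with none within 1 kb. For Flt3-ITD (15.3%) it was 19.2% with equal lists and 18.6% with the upper 50%. For Smc3 del/+ (21.4%) it was 26.3%, 32.3% and, with none within 1 kb, 24.5%. With equal lists and with the upper 50%, absence from other genotypes was judged on the limited lists. The share on chromosome 1 (10.2%) was 5.18% with equal lists, and that on chromosome 11 (6.21%) was 3.45% with equal lists and 7.13% with the upper 50%. The cause of these shifts was not tested. No paired analysis was possible because no result here comes from a test between genotypes to which a replicate term could be added. The median distance to a region called in all 8 (14.6 kb) ran from 12.5 to 29.9 kb over all alternatives. Read depth is unknown, which limits every count of absent calls.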
